A study of Rattus norvegicus with 18 samples.

Results

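The caspases are cysteine proteases that cut their substrates after aspartate. The 8 genes described here are 7 caspase genes on the array and Apaf1, the adaptor on which one of the caspases is activated. They were chosen by name, as the probes whose gene symbol or RefSeq accession in the scanner output is Casp1, Casp2, Casp4, Casp6, Casp8, Casp9, Casp12 or Apaf1. These 8 genes have 9 probes, with 2 for Casp9 and 1 for each other gene, out of 27203 gene names and 32116 probes that were tested. All 9 probes were well above background on all 18 arrays.

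RNA came from proximal sciatic nerve of adult male Sprague-Dawley rats, the stump that stays joined to the spinal cord after a piece of the nerve is cut out of the left thigh. The time-points are 0 h, 0.5 h and 1 h for the first hour after the cut, then 3 h, 6 h and 9 h, with 3 arrays for each. Every rat was anaesthetized and had the nerve exposed and cut, the 0 h group served as the control, and no sham-operated group was analysed here. The labels do not say whether an array holds 1 rat or a pool, so the P-values measure the spread between these arrays, which may be technical.

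In a resting cell a caspase lies dormant as a proenzyme. Inflammatory caspases are switched on in inflammasomes, where they mature interleukins and open pores in the membrane, a lytic death called pyroptosis. Initiator caspases are activated on scaffolds, Casp8 at death receptors, Casp9 on the Apaf1 apoptosome once mitochondria leak cytochrome c, and Casp2 on the PIDDosome, and executioners then dismantle the cell. In peripheral nerve, Schwann cells wrap the axons, and macrophages and neutrophils enter after injury. The arrays measure RNA and not the cleavage that activates a caspase.

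Casp1, Casp4 and Casp12, the inflammatory group, lie side by side on rat chromosome 8, and their probes are shown to compare them with each other. No probe was compared with the RNA of another gene, so whether it could bind that RNA was not tested. Their probes of 60 bases are written 5′ to 3′ as the scanner files give them, at chr8:2032917-2032976 for Casp1, chr8:2075044-2075103 for Casp4 and chr8:2109935-2110430 for Casp12, all on the plus strand of rn4. Capitals mark the longest runs of bases that the Casp4 and Casp12 probes share, 2 runs of 8 bases.
Casp1: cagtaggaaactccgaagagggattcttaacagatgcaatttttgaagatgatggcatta
Casp4: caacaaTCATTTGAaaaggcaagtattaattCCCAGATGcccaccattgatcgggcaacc
Casp12: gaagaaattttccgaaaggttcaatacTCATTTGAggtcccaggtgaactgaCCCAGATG
Laid over each other without gaps at any shift of up to 30 bases, the 3 probes matched at 20 to 24 of 60 bases, and no pair among the 36 pairs of the 9 probes matched at more than 27. The span of the Casp12 probe on the genome is longer than its 60 bases, so its target crosses at least 1 exon junction. The other probes lie at chr4:70046975-70047034 (Casp2), chr9:57428119-57435205 (Casp8), chr5:160706695-160706754 and chr5:160719541-160719600 (Casp9), chr7:27933335-27933395 on the minus strand (Apaf1) and chr2:227373580-227373639 (Casp6).

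The sequences before the transcription start are shown for Casp1 and Casp12 because both hold the same match to an interferon-stimulated response element, the site bound by interferon regulatory factors. They are the 250 bases before the annotated start, from RefSeq on GRCr8, on the plus strand, at chr8:10872580-10872829 for Casp1 and chr8:10926938-10927187 for Casp12. Capitals mark the match to the core letters GAAANNGAA, read on either strand.
Casp1: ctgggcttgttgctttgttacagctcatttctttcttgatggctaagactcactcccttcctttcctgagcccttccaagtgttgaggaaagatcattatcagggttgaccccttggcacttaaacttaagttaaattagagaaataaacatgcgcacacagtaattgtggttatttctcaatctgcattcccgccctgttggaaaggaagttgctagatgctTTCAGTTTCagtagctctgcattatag
Casp12: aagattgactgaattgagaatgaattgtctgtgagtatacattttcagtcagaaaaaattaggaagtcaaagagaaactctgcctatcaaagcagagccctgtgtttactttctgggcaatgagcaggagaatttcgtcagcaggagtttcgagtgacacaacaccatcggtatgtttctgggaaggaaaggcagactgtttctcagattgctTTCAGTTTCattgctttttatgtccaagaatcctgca
The match is TTCAGTTTC in both genes, and it begins 27 bases before the start in Casp1 and 37 bases before it in Casp12. Of 27457 rat promoters, read from 250 bases before to 50 bases after the start, 9.53% hold GAAANNGAA. RefSeq windows were matched for 6 of the 8 genes, all except Casp4 and Casp8, and the other 4 held no match to it. The inflammatory windows also stand apart in composition. The 250 bases were 42.0% G or C with 2 CpG in Casp1 and 40.4% with 3 CpG in Casp12, whereas those of Casp2, Casp6, Casp9 and Apaf1 were 60.8% to 74.0% with 10 to 39 CpG, beside a median of 52.0% and 6 over all promoters. A GC box (GGGCGG, in 34.5% of all promoters) was found in Casp1, Casp2, Casp9, Apaf1 and Casp6, and not in Casp12. TTCNNNGAA, read by STAT factors (8.68%), and TATAAA, the TATA box (14.3%, after the start), were found in Casp12 alone of the 6, and the AP-1 letters TGANTCA (7.4%) in none. These are matches of letters on either strand and not measured binding.

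Levels are given as the log2 processed signal of a probe minus the 75th percentile of its array, called the log2 normalized signal below. A change is a difference of mean log2 normalized signal, with its standard error from limma, and it was called when the unadjusted P-value was under 0.01 and the Benjamini-Hochberg adjusted P-value over all 32116 probes was under 0.05. The arrays were scanned on 3 days. The 0 h and 0.5 h arrays share the first day, the 1 h, 3 h and 6 h arrays and 9 h arrays 1 and 2 the second, and 9 h array 3 was scanned on the third, so for 1 h and later the time-point and the scan day cannot be told apart against 0 h. Array 3 of 3 h lay on another slide than arrays 1 and 2, and had 82.3% of spots above background against 70.3% and 71.1%.

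Over the 6 time-points, 3 of the 8 genes passed the F-test, which asks whether any time-point differs. They were Casp2, Casp6 and Apaf1, and 34.2% of all probes passed it. With quantile normalization or the deposited matrix the 3 genes were Casp2, Casp6 and Casp4. Casp1 and Casp4 had adjusted P-values of 0.0427 and 0.0477 but missed the unadjusted limit, and Casp12, Casp8 and both Casp9 probes had 0.0703, 0.0824, 0.0622 and 0.561. No gene of the 8 was called with a change of 2-fold or more, where 8.97% of probes were. Without array 3 of 3 h 6 of the 8 genes passed, with Casp1, Casp12 and Casp8 added, and 32.7% of probes did. In a fit of only the 11 arrays scanned on the second day, from 1 h to 9 h, no gene passed while 18.9% of probes did. In that fit 3 of the 8 had an unadjusted P-value under 0.05, Apaf1 (adjusted P-value 0.0614), Casp1 (0.0927) and the brighter Casp9 probe (0.102).

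**Figure D1:**
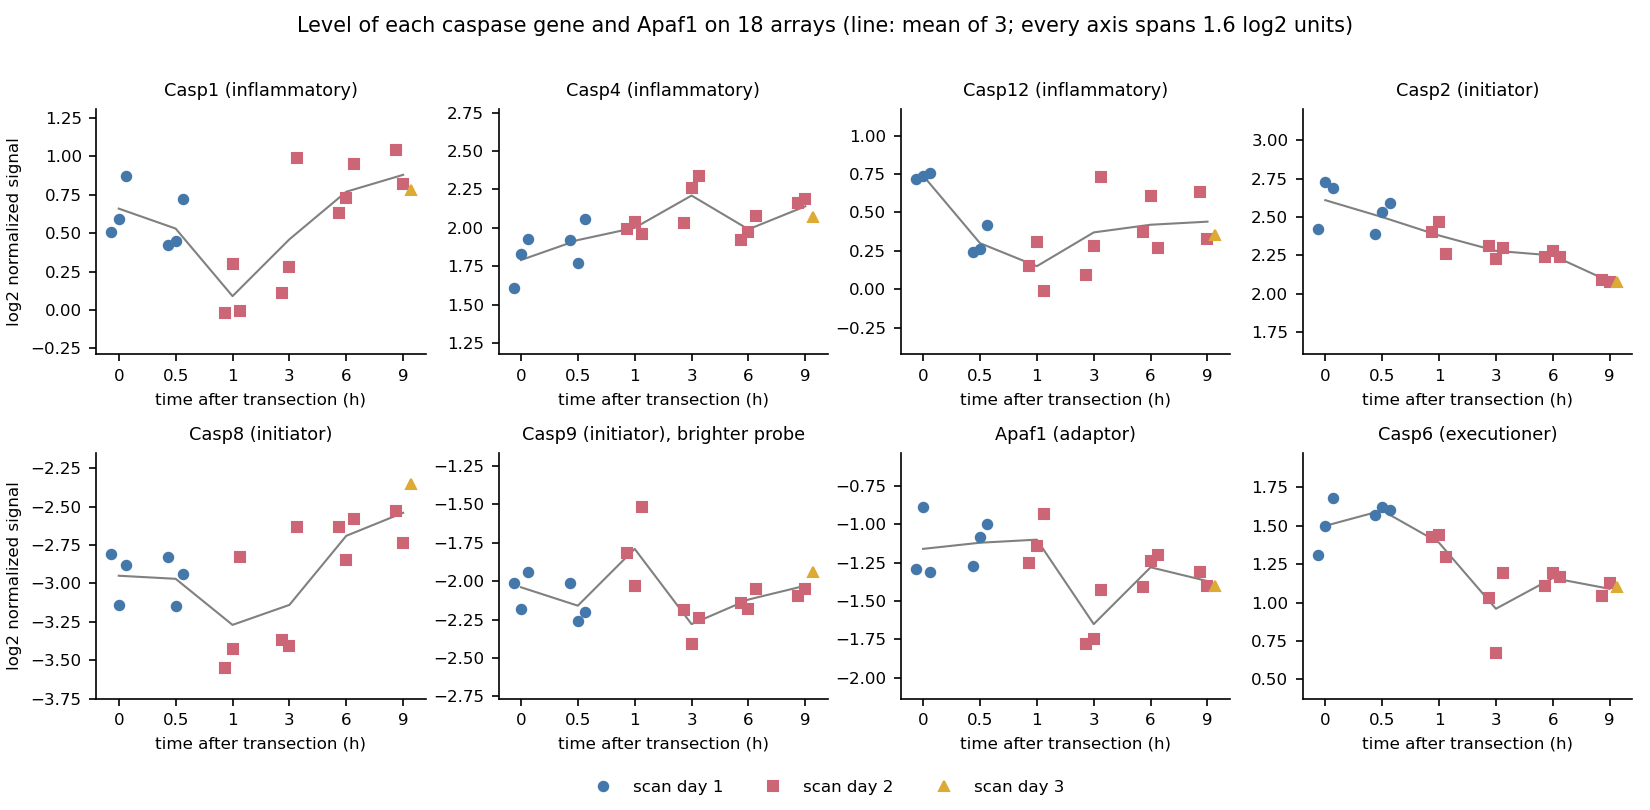
Log2 normalized signal of the 8 genes (y axis, of equal span in each panel) against time after transection in h (x axis, categories), with 1 point per array, the scan day as colour and shape, and a line through the means of 3. Casp2 stepped down from 2.61 at 0 h to 2.08 at 9 h, and Casp1 had its lowest mean at 1 h (0.09). Array 3 of 3 h sat above arrays 1 and 2 for Casp1, Casp12 and Casp8 and, by less, for Casp4, Apaf1 and Casp6.

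Casp1, which cuts the precursors of interleukin-1β and interleukin-18, had its lowest mean at 1 h and rose from 1 h to 6 h. On the 3 arrays its log2 normalized signal was 0.51, 0.59 and 0.87 at 0 h and 0.42, 0.45 and 0.72 at 0.5 h. The 1 h arrays gave -0.02, 0.30 and -0.01 and the 3 h arrays 0.11, 0.28 and 0.99, before 0.63, 0.73 and 0.95 at 6 h and 1.04, 0.82 and 0.78 at 9 h. All arrays of 1 h lay below all of 0 h and all of 6 h, and at 3 h array 3 stood apart from the other two. At 6 h Casp1 was 0.68 ± 0.19 (SE) higher than at 1 h, 1.60-fold, on arrays of 1 scan day (adjusted P-value 0.0201, limma). It was the only gene of the 8 called between these time-points, at which 24.1% of probes were called. The change at 1 h was -0.57 ± 0.19 (adjusted P-value 0.104), which was not called but was so without array 3 of 3 h (0.0313). No time-point was called against 0 h, and at 9 h the change was 0.22 ± 0.19 (adjusted P-value 0.39). The higher level at 6 h lost its call without array 1 or 3 of 1 h or array 3 of 6 h, with changes of 0.59 to 0.63 and adjusted P-values of 0.0597 to 0.0718.

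The macrophage list and Casp1 were both lowest at 1 h and higher at 6 h. The summed linear signal of its 11 genes, in multiples of the 75th percentile of the array, was 73.5 to 86.6 at 0 h, 59.1 to 69.4 at 1 h, 122 to 170 at 6 h and 164 to 212 at 9 h. At 3 h it was 81.1 and 96.8 on arrays 1 and 2 and 137 on array 3, the array on which Casp1 was high. On arrays 1 and 2 of 3 h the sum was within or above its 0 h range while Casp1 lay below its own, and at 9 h the sum was higher than at 0 h on all arrays while the change of Casp1 was not called. All 11 genes were well above background at every time-point by their brightest probe, 10 of 11 passed the F-test, and 7 were called higher at 6 h than at 1 h, beside 36.3% and, in either direction, 25.7% of gene names. Against 0 h the list did not move as one. At 1 h 1 gene was called higher and 1 lower, at 6 h 6 higher and 1 lower, and at 9 h 7 higher and 1 lower. The shares of gene names called were 6.09%, 26.4% and 32.7%. Over the 18 arrays, which share time-points and scan days, the 3 genes with a profile most like Casp1 were Tlr4, the lipopolysaccharide receptor (Pearson r = 0.904), Cd68, a lysosomal macrophage protein (0.901), and Cybb, a subunit of the phagocyte oxidase (0.897), among 11324 genes. The summed signal of 11 neutrophil genes was also highest on array 3 among the 3 h arrays, 24.5 against 9.77 and 17.2. It was 1.48 to 2.45 at 0 h, 4.14 to 5.74 at 1 h, where Casp1 was lowest, and 16.7 to 24.5 at 6 h. In nerve tissue more macrophages, more neutrophils and more Casp1 RNA per cell cannot be told apart.

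**Figure D2:**
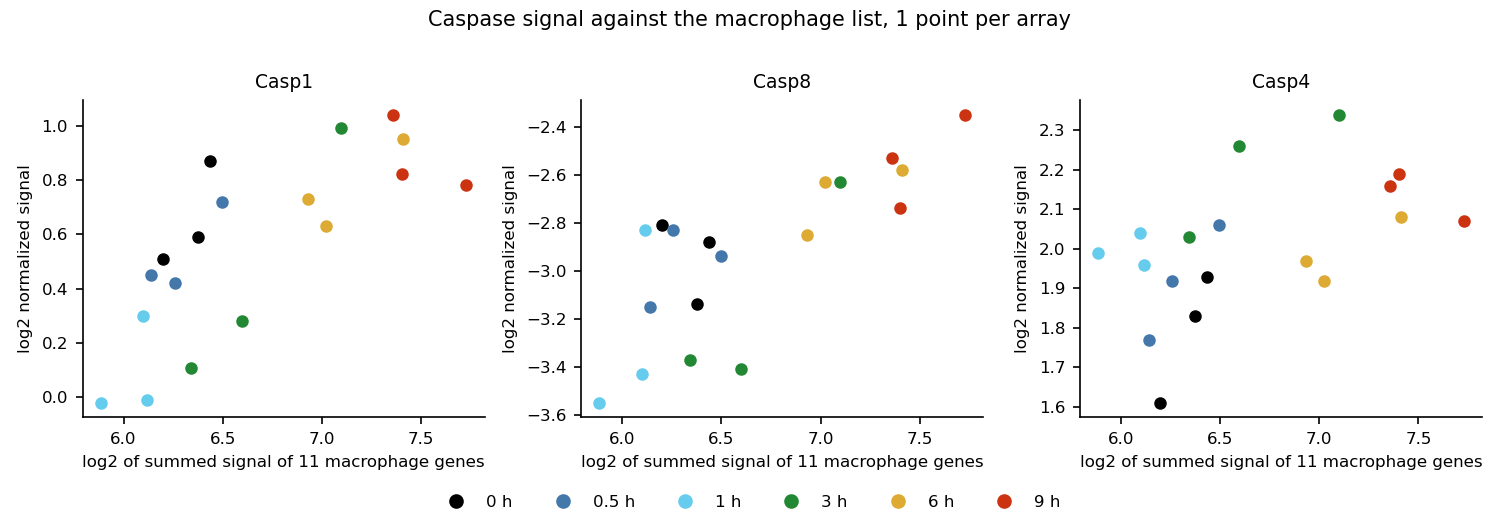
Log2 normalized signal of Casp1, Casp8 and Casp4 (y axes) against log2 of the summed signal of 11 macrophage genes (x axes), 1 point per array, coloured by time-point. The 1 h arrays have the lowest mean for Casp1, 3 h arrays 1 and 2 lie at like Casp1 levels but to the right of them, and 3 h array 3 lies with the 6 h and 9 h arrays for Casp1 and Casp8.

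Casp4, the rodent sensor caspase for lipopolysaccharide in the cytosol, was the only member of the 8 called higher than 0 h. Its log2 normalized signal was 1.61, 1.83 and 1.93 at 0 h, with 1.92, 1.77 and 2.06 at 0.5 h. It went on to 1.99, 2.04 and 1.96 at 1 h and, on the 3 h arrays, 2.03, 2.26 and 2.34, then 1.92, 1.97 and 2.08 at 6 h, and ended on 2.16, 2.19 and 2.07 at 9 h. The arrays of 1 h, 3 h and 9 h all lay above those of 0 h, by a narrow margin at 1 h, and 6 h overlapped 0 h. It rose by 0.42 ± 0.11 at 3 h (1.33-fold, adjusted P-value 0.0205) and 0.35 ± 0.11 at 9 h (1.27-fold, 0.0218), and the change at 6 h was 0.20 ± 0.11 (0.194). Neither change was called with normexp background correction (0.20 at 3 h and 0.27 at 9 h), with each array shifted to its median (0.32 and 0.18) or with only the 6 arrays of the contrast. Under normexp the median over all probes was 0.44 at 3 h and -0.06 at 9 h. Leaving out 0 h array 1 or array 2 or 3 of 3 h ended the call at 3 h (0.33 to 0.39, adjusted P-values 0.076 to 0.0787), and leaving out array 1 or 2 of 0 h or of 9 h ended that at 9 h (0.26 to 0.37, 0.0429 to 0.0887).

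Casp12, a rodent caspase linked to the endoplasmic reticulum, was highest at 0 h. It stood at 0.72, 0.74 and 0.76 at 0 h and 0.24, 0.26 and 0.42 by 0.5 h. Values of 0.15, 0.31 and -0.01 followed at 1 h, 0.09, 0.28 and 0.73 by 3 h, 0.37, 0.61 and 0.27 by 6 h and 0.63, 0.33 and 0.35 by 9 h. Only array 3 of 3 h reached the range of 0 h. The change was -0.43 ± 0.15 at 0.5 h, on the same scan day as 0 h (adjusted P-value 0.107), and -0.59 ± 0.15 at 1 h, 0.665 times the 0 h level (0.0366), the only gene of the 8 called at 1 h, where 5.35% of probes were called. At 0.5 h none of the 8 was called by limma, where 5.71% of probes were, and Casp12 alone had an unadjusted P-value under 0.05 (0.0116). It was called at 0.5 h with array weights (adjusted P-value 0.042) or without array 3 of 3 h (0.0491). The call at 1 h was lost without any of the 3 arrays of 0 h, array 2 of 0.5 h, or array 1 or 3 of 1 h (-0.60 to -0.51, 0.0501 to 0.122), with normexp or with no filter on dim probes (0.0544 to 0.0567).

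The median change of the 3 inflammatory caspases was -0.57 at 1 h and 0.22 at 9 h, beside medians of 0.02 over all probes at both. With each array shifted to its median it was -0.72 and 0.05. At 9 h Casp1 and Casp4 had positive changes and Casp12 a negative one (-0.30 ± 0.15, adjusted P-value 0.129). Of these only that of Casp4 was called, and differences between the 3 genes were not tested. Profiles most like Casp4 were those of Pspn (r = 0.814), N4bp2l2 (0.801) and Or1d2 (0.781), and those most like Casp12 were Tpr (0.83), Psme1 (0.819) and Zfp503 (0.799), so neither was as close to any gene as Casp1 was to Tlr4.

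**Figure D3:**
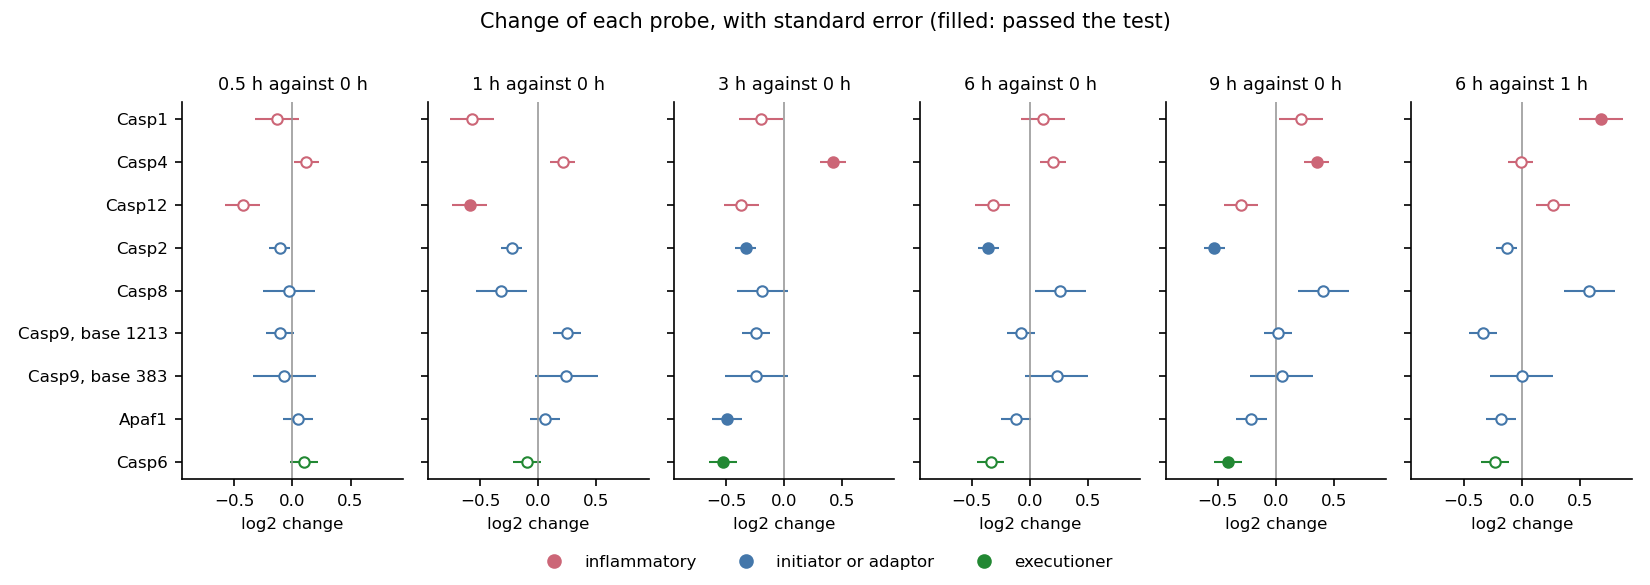
Log2 change of each of the 9 probes (x axis) in the 6 comparisons (panels), with bars of 1 standard error and filled points for changes that were called. Called changes lie to the right for Casp4 at 3 h and 9 h and Casp1 at 6 h against 1 h, and to the left for Casp12 at 1 h, Casp2 at 3 h, 6 h and 9 h, Casp6 at 3 h and 9 h, and Apaf1 at 3 h.

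Casp2, the initiator of the PIDDosome, fell by a small and steady amount. Its log2 normalized signal was 2.42, 2.73 and 2.69 at 0 h and 2.39, 2.53 and 2.59 at 0.5 h. Later arrays read 2.40, 2.47 and 2.26 (1 h), 2.31, 2.23 and 2.30 (3 h), 2.24, 2.28 and 2.24 (6 h) and 2.09, 2.08 and 2.08 (9 h). Its means kept the order of the time-points, neighbours overlapped up to 6 h, and all arrays of 9 h lay below all others. The change was -0.33 ± 0.09 at 3 h (adjusted P-value 0.0273), -0.36 ± 0.09 at 6 h (0.00944) and -0.53 ± 0.09 at 9 h (0.000626), when it stood at 0.691 times the 0 h level. The call at 9 h held under 29 other settings and was lost only when a 2-fold change was asked for as well, with changes of -0.70 to -0.45. At 6 h it was lost with normexp or with only the 6 arrays of the contrast. At 3 h it was lost with only the 6 arrays of the contrast (0.125) and without array 2 or 3 of 0 h or any of the 3 arrays of 3 h (-0.35 to -0.27, 0.0508 to 0.115). Within the second scan day the values still ran from 2.26 to 2.47 at 1 h to 2.08 and 2.09 on the 9 h arrays of that day, and the F-test there gave an adjusted P-value of 0.172. At 6 h Casp2 was the only gene of the 8 called against 0 h, and 24.5% of probes were. The closest profiles were Sec23a, a coat protein of vesicles that leave the endoplasmic reticulum (r = 0.956), Amacr (0.943) and Cpsf6 (0.942).

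Casp6, the executioner that cuts lamin A and is known from axon degeneration, fell at 3 h and was lower again at 9 h. It was 1.31, 1.50 and 1.68 at 0 h and 1.57, 1.62 and 1.60 at 0.5 h. The 1 h arrays gave 1.43, 1.44 and 1.30 and the 3 h arrays 1.03, 0.67 and 1.19, before 1.11, 1.19 and 1.17 at 6 h and 1.04, 1.13 and 1.10 at 9 h. All arrays of 3 h, 6 h and 9 h lay below all arrays of 0 h, 0.5 h and 1 h. On the second scan day the lowest 1 h array was at 1.30 and the highest later one at 1.19, and the fit on that day did not call Casp6 (adjusted P-value 0.151). Against 0 h the change was -0.53 ± 0.12 at 3 h (0.692 times, adjusted P-value 0.00987), -0.34 ± 0.12 at 6 h (0.0513, not called) and -0.41 ± 0.12 at 9 h (0.754 times, 0.0175). The F-test called Casp6 under 28 other settings on arrays of all time-points, not counting the 2-fold limit, under which it was not called. With normexp or with only the 6 arrays of the contrast the calls at 3 h (adjusted P-values 0.0504 and 0.106) and 9 h (0.11 and 0.0543) were lost. The call at 9 h was lost without array 2 or 3 of 0 h or array 1 or 3 of 9 h (-0.41 to -0.32, 0.0437 to 0.0802). Its profile was most like those of Meox2, a homeobox factor of mesoderm and endothelium (r = 0.954), Shroom1 (0.923) and Ssh3 (0.923).

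Summed signals of resident cell markers were lower at 9 h than at 0 h, whereas of single genes most of the fibroblast list but only a minority of the Schwann cell and endothelial lists were called lower. Over all gene names 36.3% passed the F-test and 32.7% were called at 9 h. The summed signal of 14 Schwann cell genes, all well above background at every time-point, lay between 865 and 1030 at 0 h, and between 685 and 780 by 9 h, and 7 of 14 passed the F-test, with 5 called lower and 1 higher at 9 h. At 3 h the sum was 1030, 934 and 777, and 0 Schwann cell genes were called lower and 1 higher, with 0 lower of the endothelial and 1 of the fibroblast genes, where 14.8% of gene names were called. The sum of 6 fibroblast genes lay between 1300 and 1390 at 0 h and between 901 and 959 at 9 h (6 of 6 passed the F-test, 5 called lower), and that of 7 endothelial genes between 52.3 and 57.2 at 0 h and between 38.4 and 39.6 at 9 h (3 of 7 passed, 2 called lower). The part of these shifts in the lower Casp2 and Casp6 was not tested. Neutrophil genes went from 1.48 to 2.45 at 0 h, with 5 of 11 genes above background on all 3 arrays, to 20.1 to 24 at 9 h, with 11 of 11. Skeletal muscle genes ranged from 2.83 to 1250 between arrays. Within 0 h they were 1250 on array 1, without which both calls of Casp4 were lost, and 79.7 and 114 on arrays 2 and 3. The part of muscle in those calls was not tested. Of the 7 muscle genes 0 were called by limma in any comparison and 0 had an unadjusted F-test P-value under 0.05. Adipocyte genes ranged from 12.5 to 44.7 with 0 of 4 passing limma's F-test and 1 of 4 with an unadjusted P-value under 0.05, and T cell genes from 1.14 to 2.26 with 2 of 4.

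Apaf1, the scaffold of the apoptosome, was lowest at 3 h. It was -1.29, -0.89 and -1.31 at 0 h, with -1.27, -1.08 and -1.00 at 0.5 h. It went on to -1.25, -1.14 and -0.93 at 1 h and, on the 3 h arrays, -1.78, -1.75 and -1.43, then -1.41, -1.24 and -1.20 at 6 h, and ended on -1.31, -1.40 and -1.40 at 9 h. All arrays of 3 h lay below those of every other time-point, by a narrow margin for array 3. The change at 3 h was -0.49 ± 0.13 (0.712 times, adjusted P-value 0.0268), and at 6 h and 9 h -0.12 ± 0.13 (0.533) and -0.21 ± 0.13 (0.248). The call was lost without array 2 of 0 h or array 1 or 2 of 3 h (-0.44 to -0.35, 0.0849 to 0.12). With only the 6 arrays of the contrast it was also lost (0.115). With normexp the change was -0.01, beside a median of 0.44 over all probes. The F-test called Apaf1 under 12 of 28 other settings. Wipf3 (r = 0.888), Nrros (0.874) and Kcnd1 (0.867) had the closest profiles.

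Casp8, activated at death receptors and also the brake on necroptosis, had its lowest mean at 1 h and its highest at 9 h. It was -2.81, -3.14 and -2.88 at 0 h and -2.83, -3.15 and -2.94 by 0.5 h. Values of -3.55, -3.43 and -2.83 followed at 1 h, -3.37, -3.41 and -2.63 by 3 h, -2.63, -2.85 and -2.58 by 6 h and -2.53, -2.74 and -2.35 by 9 h. At 1 h and at 3 h array 3 stood well above arrays 1 and 2, and all 9 h arrays lay above all 0 h arrays. None of its changes passed, with 0.41 ± 0.22 at 9 h (adjusted P-value 0.16) and 0.58 ± 0.22 at 6 h against 1 h (0.0623). The latter passed with quantile normalization (0.60, 0.0326), the median shift (0.59, 0.0493), the deposited matrix (0.58, 0.0335), the replicate number as a block (0.58, 0.0181) and array weights (0.71, 0.00697). It also passed without array 3 of 1 h (0.80, 0.0162) or array 3 of 3 h (0.58, 0.027). With normexp it was -0.18, beside a median of -0.39 over all probes. Gna15 (r = 0.912), a G protein subunit of blood cells, Msl1 (0.909) and Snx25 (0.897) were closest to it.

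Casp9, the caspase of the apoptosome, gave no called change on either probe in the fit of all arrays without a block. The probe at base 1213 of the transcript was -2.01, -2.18 and -1.94 at 0 h and -2.01, -2.26 and -2.20 at 0.5 h. Later arrays read -1.82, -2.03 and -1.52 (1 h), -2.19, -2.41 and -2.24 (3 h), -2.14, -2.18 and -2.05 (6 h) and -2.10, -2.05 and -1.94 (9 h). It was highest at 1 h, and the step from 1 h to 6 h of -0.33 ± 0.12 separated all arrays without passing (adjusted P-value 0.0621). It was called with the replicate number as a block (0.0292) and without array 2 of 1 h (-0.45, 0.0168), ranged from -0.59 to -0.20 over the settings tried, and was -0.20 without array 3 of 1 h (0.236). The dimmer probe at base 383 ran from -4.67 to -3.16 with its highest value on array 1 of 6 h, and its step from 1 h to 6 h was 0.00 ± 0.27 (0.992). Whether the probes differ in that step was not tested. The closest profiles to the brighter probe were Cdc42ep1 (r = 0.908), Mgat4b (0.894) and Krba1 (0.891).

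The initiators and Apaf1 had negative changes at 3 h in 4 of 4 genes, -0.49 to -0.19 with a median of -0.28, beside a median of 0 over all probes. With normexp 2 of the 4 were positive and the median was 0.12, beside a normexp median of 0.44 over all probes. With the executioner and the inflammatory group, 4 of the 8 genes were called at 3 h, Casp4 higher and Casp2, Apaf1 and Casp6 lower, and 13.6% of probes were called. At 9 h 3 of the 8 were called, Casp4 higher and Casp2 and Casp6 lower, and 30.4% of probes were. The arrays of 9 h and 0 h did not overlap for 5 of the 8 genes and for 53.1% of probes, and those of 3 h and 0 h for 5 genes and 38.2% of probes.

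Differences between 2 genes on the same array do not depend on a shift of whole arrays against each other. The difference Casp4 minus Casp2, relative to its mean at 0 h, was 0.01, -0.08 and 0.07 at 0 h and 0.35, 0.06 and 0.29 at 0.5 h. The 1 h arrays gave 0.41, 0.39 and 0.52 and the 3 h arrays 0.54, 0.85 and 0.85, before 0.50, 0.51 and 0.67 at 6 h and 0.90, 0.94 and 0.81 at 9 h. All arrays from 1 h on lay above all those of 0 h and 0.5 h. Casp4 minus Casp6 went from between -0.04 and 0.04 at 0 h to between 0.67 and 0.83 at 9 h. Casp1 minus Casp2 first went down, to between -0.47 and -0.22 at 1 h, and then up, to between 0.66 and 0.91 at 9 h. The 4 pairs plotted were chosen after the values were seen, with Casp1 and Casp4 on one side and Casp2 and Casp6 on the other, and carry no test. Casp12, which had a negative change at 9 h, is in none of them.

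**Figure D4:**
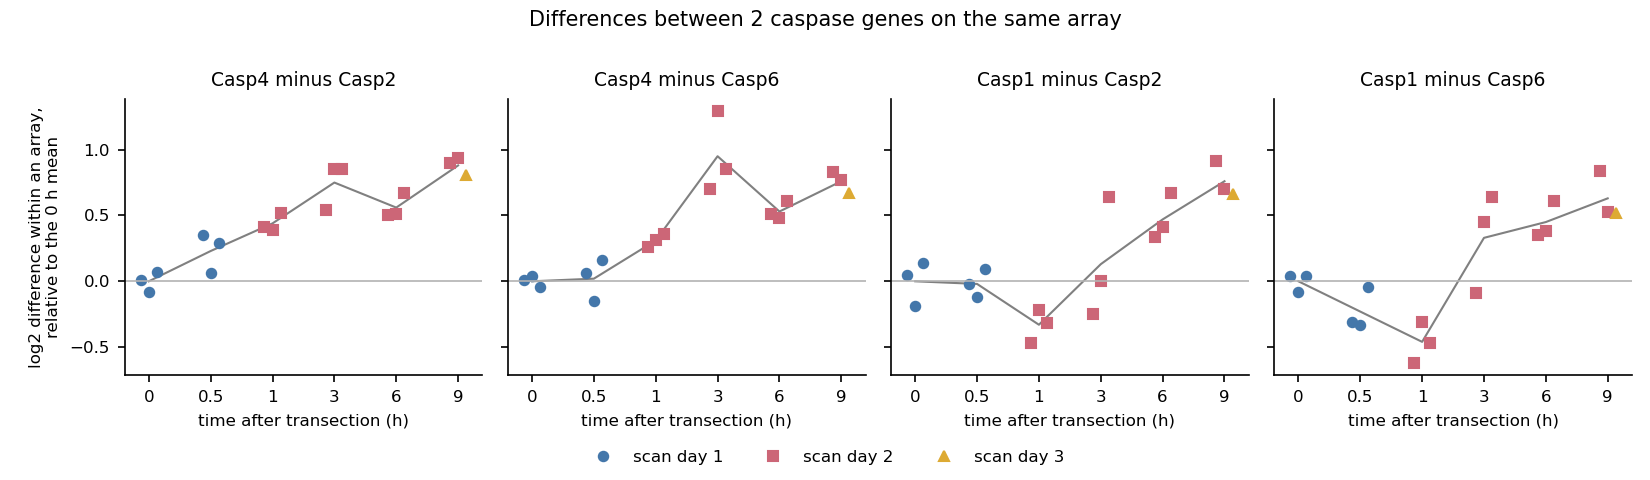
Log2 difference between 2 caspase genes on the same array, relative to the mean at 0 h (y axis), against time after transection in h (x axis, categories), with 1 point per array, the scan day as colour and shape, and a line through the means. At 9 h all arrays lie above 0.5 in all 4 panels, and at 1 h Casp1 lies lower against Casp2 and Casp6 than at 0 h.

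Both interleukin substrates of Casp1 rose. Of 12 measured inflammasome and pyroptosis genes, 6 passed the F-test, and 4 were called higher and 1 lower at 9 h, beside 36.3% and 32.7% of gene names. Il1b, whose product Casp1 matures, was 4.60 ± 0.32 higher at 6 h and 4.22 ± 0.32 higher at 9 h in log2 units (adjusted P-values 7.67e-07 and 1.1e-06). Il18, the other Casp1 substrate of this kind, rose by 1.39 ± 0.26 at 9 h (0.00113), or 0.95 with normexp. Nlrp3, an inflammasome sensor, had a log2 change of 1.46 ± 0.28 at 6 h against 1 h (adjusted P-value 0.00186). Its probe was above background on none of the 1 h arrays, so a bound of 2.24-fold was computed from the processed signal. That bound is not a lower limit across settings, because with normexp the log2 change was -0.45. The probe was above background on 3 arrays of 0 h, although its mean was -5.93 there and -5.79 at 1 h. The direction of the Nlrp3 change thus depended on the background correction. Nek7, which Nlrp3 needs to assemble, fell by 0.68 at 9 h (SE 0.08, adjusted P-value 5.97e-05). The median over the 12 genes at 9 h was 0.59.

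Of 12 death receptor complex genes, 7 passed the F-test (36.3% of gene names), and 3 were called at 9 h, all higher (32.7% of gene names in either direction). At 3 h, 3 genes were called higher and 1 lower (14.8% of gene names), and at 6 h, 4 higher and 1 lower (26.4%). Tnfrsf1a, the receptor, which the study singled out on these arrays, rose by 1.04 ± 0.15 at 9 h (adjusted P-value 0.0002). Ripk3, the kinase of necroptosis that Casp8 restrains, rose by 2.02 ± 0.29 (0.000206), and Fadd, the adaptor that recruits Casp8, by 0.71 ± 0.14 (0.00149). Cflar, a catalytically dead relative that holds Casp8 in check, rose by 0.73 ± 0.13 at 1 h (0.00473), 1.15 ± 0.13 at 3 h (6.63e-05) and 0.72 ± 0.13 at 6 h (0.0012), with 0.32 ± 0.13 at 9 h (0.0621, not called). Of the PIDDosome genes, Pidd1 rose by 1.22 ± 0.32 at 9 h (0.00942) while Cradd, the adaptor between Pidd1 and Casp2, had a change of 0.53 ± 0.31 (0.2).

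Among 14 mitochondrial death factors 8 passed the F-test, beside 36.3% of gene names, and 3 were called higher and 2 lower at 9 h, a share near the 32.7% of gene names. Bid, which Casp8 cuts to carry its signal to mitochondria, rose by 1.52 ± 0.19 at 9 h (5.35e-05), and Mcl1, a survival protein, by 1.24 ± 0.12 (8.25e-06). This Mcl1 probe was not the brightest of its gene, and the probes differed. At 0.5 h it gave 0.96 ± 0.12, whereas no gene of the list rose by more than 0.16 on its brightest probe. Bcl2l1, also a survival protein, was called at 3 h alone (0.81 ± 0.13, 0.00105), the time-point of the lowest Apaf1, and Endog, a mitochondrial nuclease, changed by -0.55 ± 0.13 at 9 h (0.00476). Of 5 inhibitor of apoptosis genes 3 passed, and 2 were called higher and 1 lower at 9 h. Birc2 and Birc3, which the study also singled out, rose by 1.08 ± 0.09 (2.56e-06) and 1.64 ± 0.25 (0.000283) at 9 h. Xiap, the direct inhibitor of Casp9, changed by -0.26 ± 0.08 (0.026), a call, and Birc6 by 0.40 ± 0.16 (0.0673), which was not.

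Of 11 genes of endoplasmic reticulum stress, the setting in which Casp12 is best known, 9 passed the F-test, with 6 called higher and 1 lower at 9 h, beside 36.3% and 32.7% of gene names. Atf6, a stress sensor, rose by 0.65 ± 0.10 at 3 h (0.000996), and Eif2ak3, another sensor, changed by -0.72 ± 0.09 at 9 h (6.32e-05). Dnajc3 and Sdf2l1, which serve the folding machinery, rose by 0.35 ± 0.08 (0.00421) and 0.48 ± 0.12 (0.00606) at 9 h. Of 10 caspase substrates 4 passed the F-test, with 3 called higher and 1 lower at 9 h, both near these shares. Lmna, the lamin that Casp6 cuts, rose by 0.60 ± 0.12 (0.00168), Parp1 by 0.30 ± 0.08 (0.0102) and Stk4 by 0.30 ± 0.08 (0.0152). With each array shifted to its median the changes at 9 h were 0.13 for Parp1 and Stk4, 0.18 for Dnajc3, 0.31 for Sdf2l1 and -0.43 for Xiap, and that of Stk4 was 0.16 with normexp. Lmnb1 was above background on 8 of 18 arrays and on none of 1 h. Its log2 change at 6 h against 1 h was 2.76 ± 0.64 (adjusted P-value 0.00645), with a bound of 2.34-fold from the processed signal. Under normexp the log2 change was -0.25, so the bound is not a lower limit across settings and the direction depended on the background correction.

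**Figure D5:**
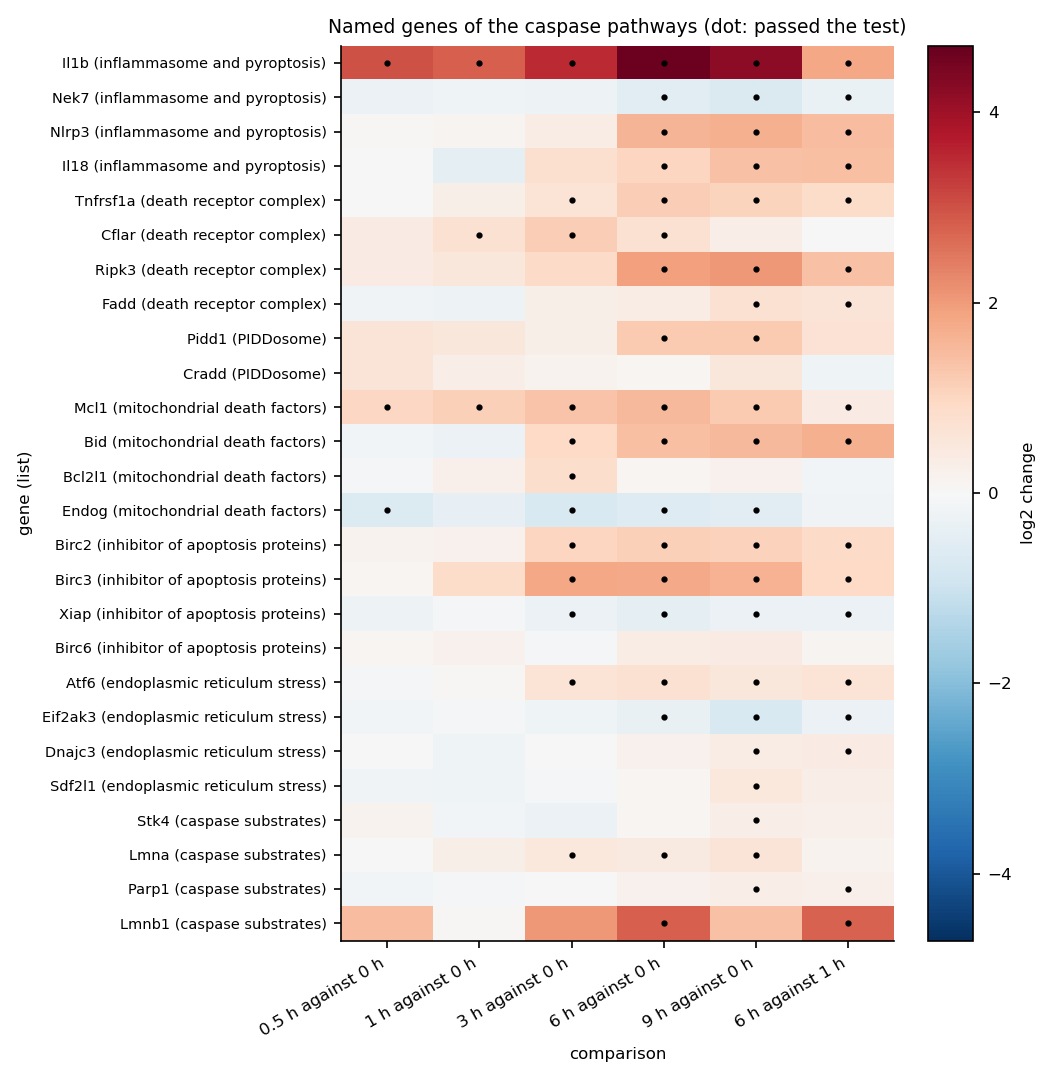
Log2 change (colour) of the 26 named genes of 7 caspase pathway lists (y axis) in 6 comparisons (x axis), with a dot for each called change. Il1b has the darkest row, up to 4.60 at 6 h, and the inhibitors Birc2 and Birc3 are called from 3 h on.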

How the data were processed

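Proximal sciatic nerve RNA of 18 rat arrays, 3 for each of 6 time-points, was analysed, with groups taken from the sample labels. The authors deposited scanner output of Agilent's Feature Extraction software (10.5.1.1 in the files), whose processed signal is a linear intensity with background subtracted by negative controls and spatial and multiplicative trends removed. A second table deposited by the authors holds log2 values with the same distribution on every array, so quantile normalized and not centred by gene, used here as an alternative. Array layout, flags and rn4 probe positions come from the files.

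Control and outlier spots (58 to 179 on an array) were left out, the processed signal was put on the log2 scale, the 75th percentile of each array was subtracted, and repeated spots of a probe were averaged. Of 41012 probes, 32116 were tested, those that all 3 arrays of some time-point showed well above background, of which 204 lack a value on some array. No spot was saturated, 65.9% to 93.5% of spots were well above background, and the number of arrays limits precision. Names were taken from the accession for 16336 probes and from a listed symbol or synonym for 3732 and 1098, in a RefSeq table on GRCr8, and otherwise from the files.

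All time-points were fitted together with limma, without a block, and tested by moderated F and contrasts with Benjamini-Hochberg adjustment over all tested probes. The tests were checked on simulated data. The 8 genes, the pathway and marker lists and the contrast of 6 h with 1 h were chosen with earlier results of these data known. All 8 genes are named with every probe, each list by counts and by the 4 genes with the lowest F-test P-value (values of that probe), and each member with the 3 genes of highest Pearson r above background on all arrays. For a list gene, 1 called probe was enough to count it. List genes Nlrp1a, Pmaip1, Xbp1 and Mylpf were not found by name. The name Pidd was not found either, but Pidd1 was. Alternatives were normexp (offset 50), quantile normalization, a median shift, the deposited matrix, other filters, blocks for replicate, slide and scan day, array weights, a trend, other thresholds, fewer arrays and leaving out each array. R 4.3.3, limma 3.58.1, Python 3.11.15, pandas 2.3.3 and matplotlib 3.10.9 were used.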

Additional observations from a re-analysis of the deposited data

How the results depend on the processing

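The called changes of the 8 genes kept their sign under every setting tried, with Apaf1 at 3 h down to -0.01 under normexp. The number of the 8 genes called did not. Over the 6 time-points it was 3, and 1 with normexp, 6 with array weights, 5 with a trend and robust prior or with the adjusted P-value alone, and 0 with a 2-fold change asked for as well or, chosen after seeing the data, on the second scan day alone. At 0.5 h array weights gave 1 in place of 0. At 1 h, in place of 1, normexp, no filter on dim probes and the 2-fold limit gave 0 and array weights 2. At 3 h, in place of 4, normexp gave 1, and the 6 arrays of the contrast alone or the 2-fold limit 0. At 6 h, in place of 1, normexp, the 6 arrays alone or the 2-fold limit gave 0, and the median shift, array weights or the trend 2. At 9 h, in place of 3, normexp or the 6 arrays alone gave 1 and the 2-fold limit 0. At 6 h against 1 h, in place of 1, quantile normalization, the median shift, the deposited matrix or array weights gave 2 and the 2-fold limit 0. Leaving out 1 array at a time gave 2 to 6 over the time-points, 0 to 1 at 0.5 h, 0 to 2 at 1 h, 1 to 4 at 3 h, 1 to 2 at 6 h, 1 to 3 at 9 h and 0 to 2 at 6 h against 1 h. The change of Casp8 at 6 h against 1 h, not called, was -0.18 with normexp, beside a median of -0.39 over all probes. With the replicate number as a block 5 genes were called over the time-points and 3 at 6 h against 1 h. Deviations of arrays that share a number correlated between -0.26 and 0.56, so not every pair was over 0.1 and the numbers were not taken to pair arrays, though 10 of 18 arrays correlated best with their own number. Against 0 h the median change of all probes was 0 to 0.02, and -0.16 to -0.09 with the median shift, and normexp moved it to 0.31 at 1 h and 0.44 at 3 h. Of the called probes 70.7% were higher at 0.5 h, 53.3% with quantile normalization, 33.1% with the median shift and 94.7% with normexp. At 6 h and 9 h the share was 49.5% and 51.4%, or 33.8% and 34.9% with the median shift. Normexp also called fewer probes, 6.4% at 6 h and 9.44% at 9 h. Of 74 called changes of named pathway genes, 2 turned with normexp and none under the other 3 scalings. The cause was not tested. The scan day as a block could be fitted only at 0.5 h and at 6 h against 1 h, and moved neither count. The Casp9 and Casp8 probes were the dimmest of the 9, all of which were above background on every array.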
